A study of Mus musculus with 2 samples.

Results

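The matrix metalloproteinases (MMPs), the ADAMTS proteases and the tissue inhibitors of metalloproteinases (TIMPs) were examined in cultured primary hepatocytes of C57Bl6 mice. Members were all rows of the deposited gene table with a symbol of the Mmp, Adamts or Timp families, which gave 46 of 36808 genes, namely 23 MMPs, 19 ADAMTS proteases and 4 TIMPs. ADAMTS-like proteins, which lack the protease domain, were not members. Both groups consisted of isolated liver parenchymal cells kept in William E medium with serum, insulin and dexamethasone, and they differed in the agent added. One received 1 µM GW3965, a compound that activates the liver X receptors, and the other its solvent DMSO. Each group had 1 library, so no difference below has a replicate check. The header of the second library reads GL. It was taken to be GW3965, the only sample in the labels besides DMSO, and this reading is not certain.

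MMPs are zinc proteases that cut collagens, basement membrane, elastin and many non-matrix proteins. They are made as inactive proenzymes, and are switched on by other proteases such as plasmin, furin and other MMPs. ADAMTS proteases are secreted relatives with thrombospondin repeats that trim proteoglycans, procollagens and clotting proteins. TIMPs bind the active site of these enzymes and block it. In liver, this system is best known from the turnover of scar matrix, where stellate cells, macrophages and sinusoidal endothelium are major sources.

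Of the 10 genes in the Mmp cluster of chromosome 9, 7 carried an AP-1 motif close to the transcription start, and their promoters are shown first because the levels of these neighbouring genes differed so widely. AP-1 is the Fos and Jun family of transcription factors, a classical inducer of MMP genes. The letters searched were TGAGTCA and its reverse complement TGACTCA, which are 1 site read on either strand. The window was the 250 bases before each start in RefSeq (GRCm38.p6). The motif occurred in 4.46% of 32851 such windows. Counted per gene over all its windows, it was found in 7 of the 10 cluster genes and in 0 of the 22 other members with a promoter sequence. Mmp12 and Mmp7 each have a further listed start whose window lacks it. Mmp9, Mmp2, Mmp19, Adamts4, Adamts6, Adamts7 and Adamts10 were among the members without a promoter sequence and were not searched. In the 7 genes it lay between 93 and 29 bases before a start. The sequences below are the last 100 bases before the start, 5′ to 3′ on the plus strand, with the motif in capitals. They are Mmp13 (chr9:7272414-7272513), Mmp12 (chr9:7347274-7347373, at the second of its listed starts), Mmp3 (chr9:7445722-7445821), Mmp10 (chr9:7502242-7502341) and Mmp1a (chr9:7464041-7464140), with Mmp8 (chr9:7558329-7558428) as a neighbour without the motif.
Mmp13: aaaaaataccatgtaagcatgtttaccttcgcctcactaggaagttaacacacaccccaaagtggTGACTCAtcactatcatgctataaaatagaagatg
Mmp12: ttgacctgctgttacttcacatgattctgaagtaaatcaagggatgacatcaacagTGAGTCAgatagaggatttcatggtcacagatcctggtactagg
Mmp3: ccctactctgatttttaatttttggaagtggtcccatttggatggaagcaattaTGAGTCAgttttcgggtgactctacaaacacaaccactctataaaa
Mmp10: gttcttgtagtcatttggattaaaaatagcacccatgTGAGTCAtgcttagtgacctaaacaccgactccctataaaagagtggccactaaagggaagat
Mmp1a: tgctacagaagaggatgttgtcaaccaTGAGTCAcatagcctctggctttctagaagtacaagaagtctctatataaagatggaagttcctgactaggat
Mmp8: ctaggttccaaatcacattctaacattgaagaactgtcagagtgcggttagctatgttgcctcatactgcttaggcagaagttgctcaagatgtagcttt
The levels of the 7 genes with the motif ran from 0 for Mmp1a to 23.3 FPKM for Mmp12 in the DMSO library. A direct repeat of AGGTCA spaced by any 4 bases, the element usually bound by liver X receptors, was searched on both strands in the same windows. It occurred in 0.0152% of all windows and in 0 of the 32 members with a promoter sequence. Only this exact form was searched, and it is so rare that 0 was likely in any case. The search thus cannot decide whether liver X receptors bind near these genes. Members without a promoter sequence, Mmp9 among them, were not searched.

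The cluster spans 427 kb (chromosome 9, 7272514 to 7699585, mm9) and was represented mainly by Mmp12. Levels are FPKM, which count fragments per length of transcript and per size of library and can be set side by side between genes. Mmp12, the macrophage elastase, stood at 23.3 FPKM in DMSO against 22.1 in GW3965. Mmp3, the stromelysin that activates other proenzymes, had 3.52 and 3.46, and Mmp13, the main interstitial collagenase of rodents, had 1.63 and 1.33. These 3 genes alone among the 10 reached an FPKM of 1. Mmp10, a second stromelysin, had 0.597 and 0.521. It shares 13.3% of its 25-base words with Mmp3, so reads between the pair are partly uncertain.

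The remaining cluster genes were close to or at 0. Mmp1a and Mmp1b, the rodent counterparts of interstitial collagenase, were listed at 0 in both libraries, which in DMSO allows up to 0.0254 and 0.0367 FPKM, the level of 3 fragments. Mmp8, the neutrophil collagenase, had 0.0344 and 0.0277, which is about 5 fragments in each library. Mmp20, the enamel protease, and Mmp7, matrilysin, were listed at 0 in DMSO and rested on about 1 and 2 fragments in GW3965. Mmp27 had 0.142 in DMSO and 0.284 in GW3965, about 16 against 39 fragments, an FPKM ratio of 1.996 with a counting interval of 1.07 to 3.76. Its level was below the minimum of 1 used for the counts below. The authors' deposited table did not call Mmp27, and its derived standard error there was 0.68 on the log2 scale.

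**Figure D1:**
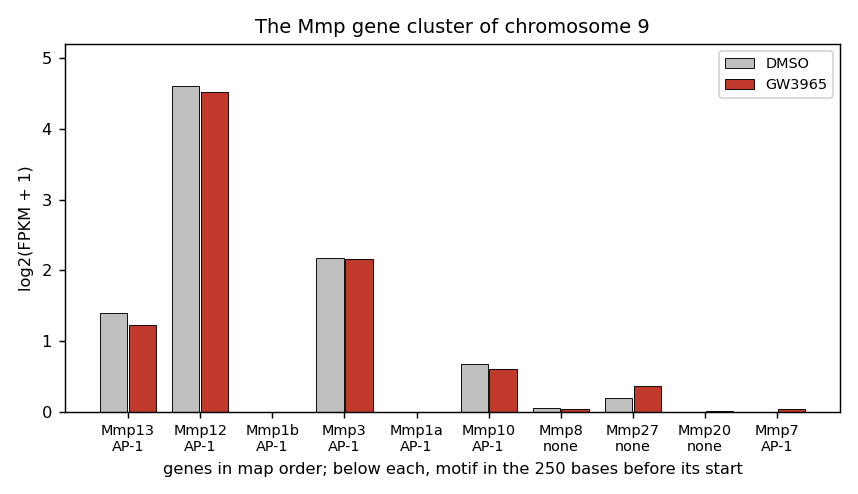
Expression of the 10 Mmp genes of the chromosome 9 cluster as log2(FPKM + 1) in the DMSO library (grey bars) and the GW3965 library (red bars), in map order, with genes of a shared locus in alphabetical order. The second line under each gene says whether an AP-1 motif lay in the 250 bases before a start. Mmp12 is the highest gene, Mmp3 and Mmp13 follow, and Mmp1a and Mmp1b are at 0, and both carry the motif.

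Across all 3 families, 18 of the 46 members reached an FPKM of 1 in at least 1 library. They were 9 MMPs, 6 ADAMTS proteases and 3 TIMPs. Of the 28 others, 8 were listed at 0 in both libraries, 4 in 1 library only, and 16 lay above 0 in both, up to 0.830 in DMSO (Adamts2). The log2 ratios below are GW3965 over DMSO after adding 1 to each FPKM, which shrinks differences at low levels. Among the 18 members, 9 ratios were above 0 and 9 below, and the median was 0.0086, against 0.011 over all 11796 genes at that minimum. Mmp9 was the 1 member past 1.5-fold upwards in the GW3965 library, and 0 members passed it downwards. Of all genes at the minimum, 1.02% passed 1.5-fold upwards and 1.33% downwards.

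**Figure D2:**
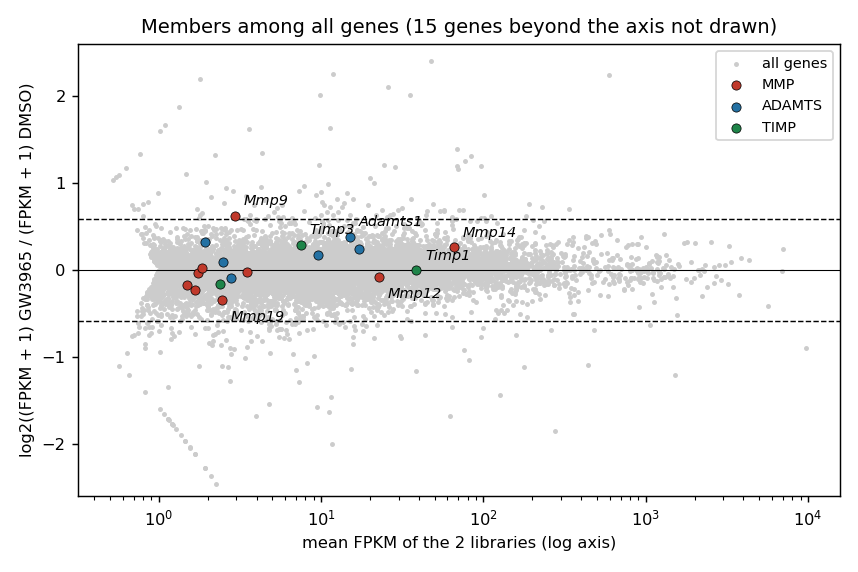
Log2 ratio of GW3965 to DMSO (vertical axis, FPKM + 1) against mean FPKM (horizontal log axis) for all genes that reached an FPKM of 1 (grey) and for the 18 members, coloured by family. Dashed lines mark 1.5-fold. Mmp9 at 0.62 lies just above the upper line, and the other 17 members lie between -0.34 and 0.38.

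Fragments behind each value were estimated from the steps between low FPKM values, which placed the libraries at about 63400000 fragments (DMSO) and 78800000 (GW3965). Intervals below are exact 95% intervals of the FPKM ratio from these numbers and cover counting error only, not differences between cultures. Of 8 hepatocyte markers used, 7 reached an FPKM of 1 and Tat did not, at 0.962 and 0.447. Apoa1 was at 598 and 660, Apob at 244 and 248, Ttr at 205 and 189, Serpina1a at 138 and 99.9 (log2 ratio -0.46), Hnf4a at 49.4 and 37.4 (-0.39), Asgr1 at 10.1 and 11.4, and Cps1, usually abundant in liver, at 1.5 and 2.1. Albumin carried the table's mark for too many fragments and was not used. Of the other cell types, 11 of 12 stellate cell and fibroblast markers, 7 of 8 endothelial, 7 of 10 macrophage, 2 of 5 cholangiocyte and 0 of 8 neutrophil markers reached an FPKM of 1. The summed FPKM of these lists was 107 in DMSO and 115 in GW3965 for stellate cell, 128 and 152 for endothelial, 101 and 119 for macrophage, and 19.6 and 21.6 for cholangiocyte markers. Most of the stellate cell sum was Dcn, at 64.8 and 65.6, and most of the macrophage sum was Cd68, at 74.9 and 93.9. Of the markers at the minimum, 9 of 11 stellate cell markers (median log2 ratio 0.15), 6 of 7 endothelial (0.27), 4 of 7 macrophage (0.04) and 2 of 2 cholangiocyte markers (0.17) had a ratio above 0. Clec4g, an endothelial marker, went the other way at 2.14 and 0.996 (-0.66), past 1.5-fold. Neutrophil markers summed to 0.485 and 0.505, with Ly6g and Elane at 0 in both libraries. The part of these cells in the values of the proteases was not tested. In bulk RNA, fewer cells of a type and less RNA per cell cannot be told apart.

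Membrane-type MMPs are anchored at the cell surface, and Mmp14, the member that cuts fibrillar collagen and activates the proenzyme of Mmp2, was the highest gene of all 3 families. Mmp14 (ENSMUSG00000000957, chromosome 14, 55050441 to 55060095, mm9) stood at 59.6 FPKM in DMSO against 71.6 in GW3965. Its FPKM ratio was 1.20, with a counting interval of 1.17 to 1.23, and its log2 ratio was 0.26. The derived standard error of Mmp14 in the authors' deposited table was 0.18 on the log2 scale. A ratio at least as high was found in 6.22% of all genes at the minimum. Mmp15 had 1.88 and 1.46 (log2 ratio -0.23), and Mmp24 had 1.79 and 1.72 (-0.03). Part of the Mmp24 value is uncertain, because 13.6% of its exon bases overlap BC029722 on the opposite strand, a gene at 21.6 and 17.0, and strand handling is not given in the sources used here. Mmp17 was at 0.109 and 0.107 and Mmp25 at 0.0492 and 0.0554, with Mmp16 at about 1 fragment in DMSO and 0 in GW3965. Mmp14 alone made up 59.2% of the summed FPKM of all MMPs in DMSO and 64.2% in GW3965.

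The gelatinases, which cut denatured collagen and basement membrane collagen, stood apart from each other. Mmp9 (ENSMUSG00000017737, chromosome 2, 164766280 to 164781350) stood at 2.11 FPKM in DMSO against 3.78 in GW3965. About 403 and 898 fragments lay behind these values. The FPKM ratio was 1.79, with a counting interval of 1.59 to 2.02, and the log2 ratio was 0.62. In order of level among the 18 members, Mmp9 was at rank 13 in DMSO and rank 8 in GW3965. A ratio at least as high was found in 0.865% of all genes at the minimum, and 1.04% of the genes whose higher FPKM lay from 1 to under 5 passed 1.5-fold upwards. In the authors' deposited table Mmp9 had p = 0.0190 and q = 1.00 without a call, with a derived standard error of 0.36 on the log2 scale. Beside it, the summed macrophage markers stood at 101 and 119, most of it Cd68 at 74.9 and 93.9. Of the 7 macrophage markers at the minimum, 4 had a ratio above 0 and 3 below, with a median of 0.04. Lyz2 was among the lower ones, at 11.5 and 9.10, and neutrophil markers were near 0 in both libraries. Whether Mmp9 passes 1.5-fold depends on the scale, since with a pseudocount of 5 the log2 ratio was 0.30. Mmp2, a product of stellate cells and fibroblasts in liver, had 0.735 and 0.676, below the minimum in both libraries.

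Among other secreted MMPs, Mmp19 had the lowest log2 ratio of the 18 members at the minimum. It stood at 2.84 FPKM in DMSO against 2.03 in GW3965, an FPKM ratio of 0.715 with a counting interval of 0.634 to 0.806, and a log2 ratio of -0.34. Of its exon bases, 22.3% overlap a gene on the opposite strand that the table lists as 1110012D08Rik, at 4.58 and 4.02. Mmp11, a stromelysin activated inside the cell by furin, had 1.83 and 1.87 (0.02). Of its exon bases, 5.58% overlap Chchd10 on the opposite strand, at 51.1 and 58.3. Mmp13 had a log2 ratio of -0.18, Mmp12 one of -0.08 and Mmp3 one of -0.02. For Mmp12 the counting interval of the FPKM ratio was 0.911 to 0.982. The derived standard errors in the authors' deposited table were 0.34 for Mmp19, 0.98 for Mmp11 and 0.24 for Mmp12 on the log2 scale. Of the 9 MMPs at the minimum, 3 had a ratio above 0 and 6 below, with a median of -0.03. At a minimum FPKM of 5 the MMP median was 0.09.

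**Figure D3:**
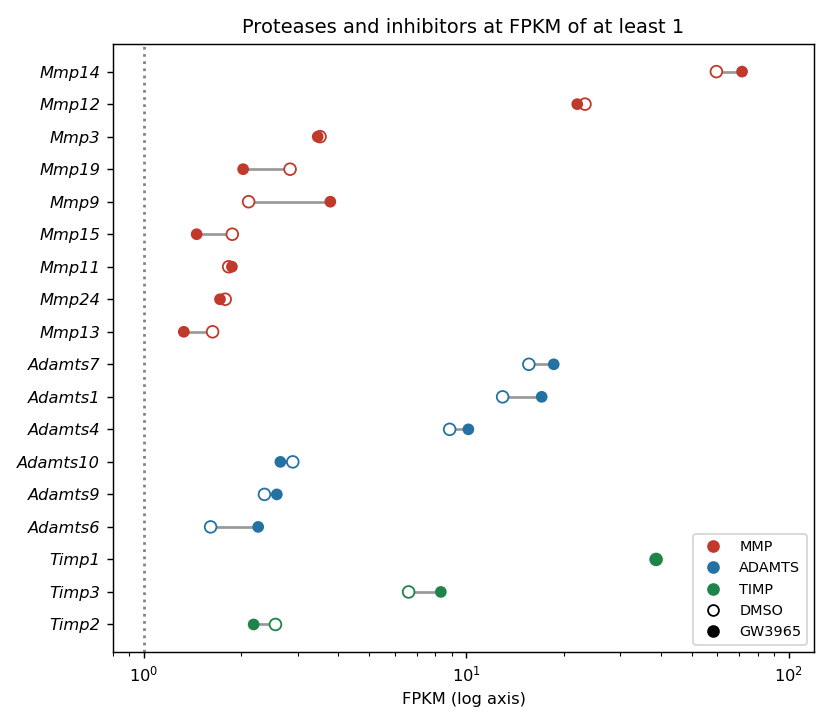
FPKM (horizontal log axis) of the 18 members that reached an FPKM of 1. Open circles are the DMSO library, filled circles the GW3965 library, and colours mark the families. Mmp14, Timp1 and Mmp12 are the 3 highest genes in both libraries, and the widest gap belongs to Mmp9.

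Of the 6 ADAMTS proteases at the minimum, 5 were higher in the GW3965 library, by less than 1.5-fold. Their median log2 ratio was 0.21, and 6237 of all 11796 genes had a ratio above 0. With a pseudocount of 5 in place of 1 that median was 0.13, and over all ADAMTS genes above 0, with no minimum, it was 0.019. Beside them, 6 of 7 endothelial markers (median 0.27) and 9 of 11 stellate cell markers (0.15) were above 0 as well, and their part in the ADAMTS values was not tested. Adamts1, which cuts aggrecan and versican (ENSMUSG00000022893, chromosome 16, 85794072 to 85803358), stood at 12.9 FPKM in DMSO against 17.1 in GW3965. Its FPKM ratio was 1.32, with a counting interval of 1.27 to 1.38, and its log2 ratio of 0.38 was the second highest of those 18. In the authors' deposited table Adamts1 had p = 0.0704. The other aggrecanases were split by level, with Adamts4 at 8.87 and 10.1 (log2 ratio 0.17) and Adamts5, its counterpart in cartilage, at 0.0578 and 0.0722. Adamts9, a versican protease, had 2.36 and 2.58 (0.09). Adamts8 and Adamts20 of the same clade were listed at 0 in both libraries.

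Adamts7, which cuts the cartilage oligomeric matrix protein, was the highest of the ADAMTS genes. It stood at 15.6 FPKM in DMSO against 18.6 in GW3965 (log2 ratio 0.24). Its locus also holds Tbc1d2b, which lies on the opposite strand, overlaps 1.94% of its exon bases and was at 17.1 and 14.2. In the authors' deposited table the derived standard error of Adamts7 was 0.56, against 0.22 for Adamts1 and 0.41 for Adamts6. Adamts6 had 1.61 and 2.26 (0.32), with a counting interval of the FPKM ratio of 1.27 to 1.55. Adamts10, which binds fibrillin, had 2.89 and 2.65 (-0.09) and was the 1 ADAMTS gene of these 6 with a ratio below 0. The procollagen N-propeptidases Adamts2, Adamts3 and Adamts14, which trim newly made collagens, all stayed below the minimum, at 0.830, 0.0477 and 0.522 in DMSO and at 0.609, 0.0343 and 0.539 in GW3965.

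Timp1, the soluble inhibitor that hepatic cells release in injury, was the second highest gene of the 3 families. Timp1 (ENSMUSG00000001131, chromosome X) stood at 38.7 FPKM in DMSO against 38.6 in GW3965, an FPKM ratio of 0.997 with a counting interval of 0.936 to 1.06. Timp3, which is held in the matrix and also blocks ADAM and ADAMTS proteases, had 6.62 and 8.33. Its FPKM ratio was 1.26, with a counting interval of 1.19 to 1.33. Timp2, the partner of Mmp14 in activating the proenzyme of Mmp2, had 2.56 and 2.19, a ratio of 0.856 with an interval of 0.762 to 0.960. Timp4 was at 0.0126 and 0.0202, about 4 and 8 fragments. By counting error alone, the 3 inhibitors at the minimum thus had ratios near, above and below 1. The derived standard errors in the authors' deposited table were 0.30 for Timp1, 0.28 for Timp3 and 0.51 for Timp2 on the log2 scale.

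Timp1, Timp3 and Timp4 each share their locus in the table with a synapsin gene, a known nested arrangement. Syn1 was at 0.559 and 0.531, Syn2 at 0.0612 and 0.0252, and Syn3 at 4.05 and 4.66. Syn3 overlaps 21.3% of the exon bases of Timp3 on the opposite strand. Since strand handling is not given, it is uncertain whether reads of that pair can be told apart there. For Timp1 the exons of Syn1 do not overlap.

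Summed over each family, MMPs reached 100.7 FPKM in DMSO against 111 in GW3965, ADAMTS proteases at 46.4 and 55.3, and TIMPs at 47.9 and 49.2. The sum of TIMPs over that of MMPs was 0.476 in DMSO and 0.441 in GW3965. This quotient rested on the 2 leading genes. Without Mmp14 and Timp1 the MMPs summed to 41.1 and 39.9 and the TIMPs to 9.19 and 10.5, and the quotient was 0.223 in DMSO and 0.264 in GW3965, so its direction turned. The 7 highest members, from Mmp14 through Timp3, had the same order in both libraries.

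**Figure D4:**
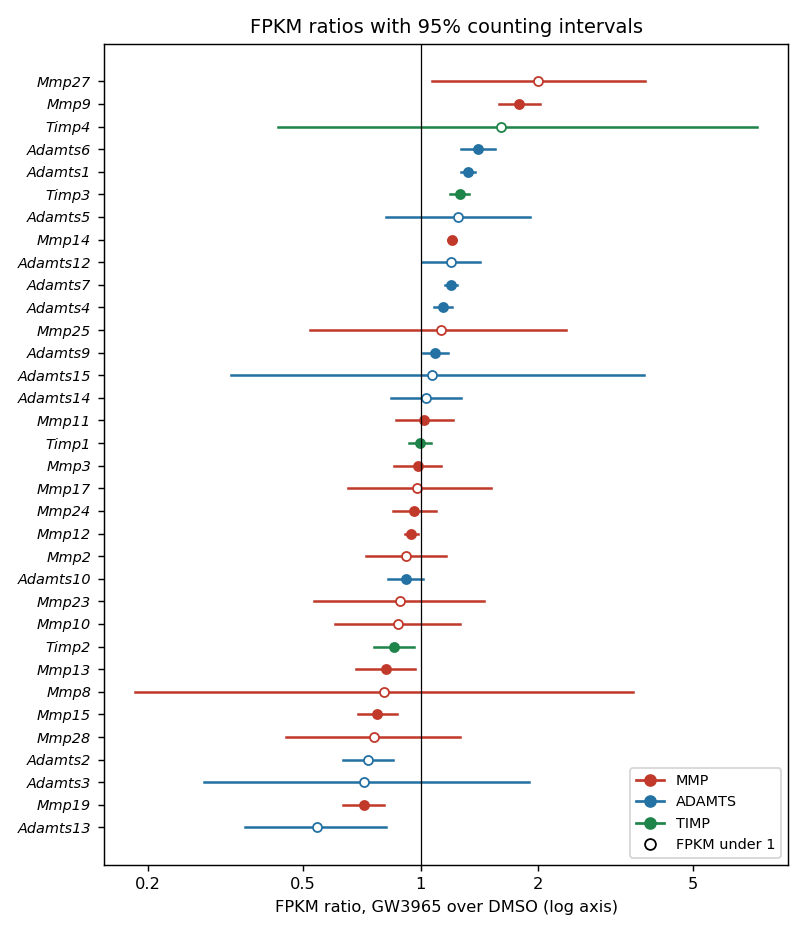
FPKM ratio of GW3965 to DMSO (horizontal log axis) for the 34 members above 0 in both libraries, with exact 95% intervals that cover counting error only. Filled circles are members at an FPKM of at least 1 and open circles lower ones. Mmp14 has the narrowest interval, 1.17 to 1.23, and Timp4, at about 4 and 8 fragments, one from 0.431 to 7.30.

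The authors' deposited table tested 27 of the 46 members and called 0 of them, against 0.285% of all 15090 genes tested. Mmp9 was the 1 member with an unadjusted p under 0.05 in the authors' deposited table, against 3.34% of all genes tested. That test compares the reads of 2 libraries and not the conditions.

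Other genes of the pathway came from 5 fixed lists with 99 genes, of which 69 reached the minimum. Of these, 2 passed 1.5-fold upwards and 1 downwards, where 2.35% of all genes at the minimum passed it in either direction, and their median log2 ratio was 0.09. In the list of MMP activation, restraint and clearance, 11 of 16 genes were at the minimum and 7 had a ratio above 0. Cd44, a hyaluronan receptor that docks Mmp9 at the cell surface, had 57.2 in DMSO and 92.9 in GW3965 (0.69). Thbs1, thrombospondin, had 22.5 and 36.8 (0.69). Tfpi2, a serine protease inhibitor of the matrix, stood at 0.45 and Furin, which activates Mmp14 and Mmp11, at 0.41. The membrane inhibitor Reck was below the minimum at 0.550 and 0.491.

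All 12 genes of plasminogen activation were at the minimum, and 0 passed 1.5-fold in either direction, with 6 ratios above 0 and 6 below. Serpinf2, the plasmin inhibitor, had 156 and 111 (-0.49), Serpinb2, an inhibitor of plasminogen activators, had 3.04 and 4.58 (0.47), Plat, the tissue activator, had 21.3 and 15.9 (-0.41) and Anxa2, a plasminogen docking protein, stood at 0.38. Among ADAM and astacin proteases and ADAMTS-like proteins, 10 of 22 genes were at the minimum and 0 passed 1.5-fold. Adam12 stood at 0.49, Adam15 at -0.37, Adam19 at 0.18 and Adam9 at 0.18.

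Of the matrix substrates, 19 of 27 were at the minimum, 15 with a ratio above 0, against 6237 of all 11796 genes, and 0 passed 1.5-fold. Col1a1, Col1a2, Col3a1, Dcn and Lum of this list are also among the stellate cell markers, of which 9 of 11 were above 0. Fn1, fibronectin, had 514 and 688 (0.42), Tnc, tenascin, had 7.54 and 10.3 (0.41), Lama5, a laminin chain, had 2.55 and 1.79 (-0.35), and Col1a1 stood at 0.34. Of the AP-1, ETS and cytokine inducers, 17 of 22 were at the minimum, and 10 had a ratio below 0. Fos had 5.31 in DMSO and 3.17 in GW3965 (-0.60) and was the 1 gene of this list past 1.5-fold. Tgfb2 stood at -0.51, Runx1 at 0.42 and Jun at -0.25.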

How the data were processed

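Libraries from total RNA used a TruSeq RNA kit (per the labels). Per the submitters' processing notes, reads went through CASAVA, TopHat2 (2.0.6), Cufflinks (version 2.0.2) and Cuffdiff, on mm9 and NCBIM37. How strands were handled is not given in the sources used here.

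FPKM were deposited by the authors, 1 column per library. Their p-value and q-value are named per the file headers, and the test statistic is a score of the authors. Standard errors were derived as the log2 FPKM ratio over that score, in size.

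The 7 genes marked for too many fragments were left out. Ratios used a pseudocount of 1, a minimum FPKM of 1 in either library and a threshold of 1.5-fold, with no test, since each group has 1 library. All members at the minimum are named, the cluster genes besides, and of each pathway list the up to 4 largest ratios. Members and lists were chosen with earlier results of these data known.

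Depth came from low values. Among 2565 genes under an FPKM of 0.1 the quotient of DMSO over GW3965 was most often 1.24, and 65.1% of quotients divided by 1.24 came within 0.1% of a quotient of whole numbers. Fragments assume the longest coding transcript of GENCODE M21 less 160 bases, and shorter transcripts would lower them. Promoters are from RefSeq (GRCm38.p6), which matched 32 of 46 members, and exon overlaps and shared 25-base words from GENCODE M21 (GRCm38). Positions in mm9 are those of the table, whose starts were taken as counted from 0 because the span of 58.5% of 19846 single-gene loci then equalled that in GENCODE. Loci with several genes give the span of all. Software was Python 3.11.15 with pandas 2.3.3, numpy 2.4.6, matplotlib 3.10.9 and scipy 1.17.1.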

Additional observations from a re-analysis of the deposited data

How the results depend on the processing

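No paired analysis was possible because there is 1 library in each group, and for the same reason no replicate could be left out. Of 69 alternative values, 53 stayed within 1.5 times the reported count or within a counting interval. For a median, the width of that interval was that of its middle gene, or the mean over its middle genes. It is thus not an interval of the median itself. Members at the minimum numbered 7 at a minimum FPKM of 5 and 38 with no minimum. Mmp9 no longer counted as higher, giving 0 members, at 2-fold, with a pseudocount of 5 and at a minimum FPKM of 5. At a minimum FPKM of 5 the median was 0.24 for all members and 0.14 for TIMPs. For MMPs it was 0.09 there, against -0.03 at a minimum of 1, so its sign changed. The ADAMTS median was 0.019 with no minimum and 0.13 with a pseudocount of 5. Without the highest member of each family, Mmp14 and Timp1, the log2 quotient of TIMP over MMP sums was 0.24, against -0.11 with them. Pathway genes past 1.5-fold numbered 0 at 2-fold and 5 with a pseudocount of 0.1. All genes past 1.5-fold, 277 as reported, numbered 94 at 2-fold, 514 with a pseudocount of 0.1, 112 with one of 5 and 169 at a minimum FPKM of 5. Pseudocounts act by construction on low genes and higher minimums remove genes, and the cause of the other shifts was not tested. Scaling to the same sum moved the median of all genes by 0.0022, and centring took 0.011 from every ratio, shifts too small to test the direction of a member ratio. Depth limits the members with few fragments, which are not all of those under an FPKM of 1. Adamts2, for example, had about 374 fragments in DMSO and 341 in GW3965.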

Other observations

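Below an FPKM of 1, a few members had FPKM ratios whose counting intervals left out 1. These genes were picked after their values were seen, and such an interval does not set them apart. All members at the minimum had such intervals as well, except Mmp3, Mmp11, Mmp24, Adamts10 and Timp1. The share of such intervals among all genes was not computed. Mmp27, given above with the chromosome 9 cluster, was among the low members with such an interval. Adamts13, the protease that cuts von Willebrand factor and is made mainly by hepatic stellate cells, had 0.221 FPKM in DMSO and 0.120 in GW3965, about 61 and 41 fragments. Its FPKM ratio was 0.541, with a counting interval of 0.355 to 0.817, the lowest ratio among the 34 members above 0 in both libraries. Vwf, which encodes its substrate, was at 0.353 and 0.402. Of the 11 stellate cell markers at the minimum, 9 had a ratio above 0, with a median log2 ratio of 0.15, and Lrat, below the minimum, was at 0.259 and 0.228. Adamts2, a procollagen N-propeptidase, had a ratio of 0.733 with an interval of 0.632 to 0.852. Adamts12, a relative of Adamts7, went the other way, at 0.424 and 0.507 FPKM, a ratio of 1.19 with an interval of 1.01 to 1.42. The authors' deposited table gives p = 0.0943 for Adamts13, p = 0.576 for Adamts2 and p = 0.449 for Adamts12, with derived standard errors of 0.53, 0.80 and 0.34 on the log2 scale, and calls none of them. With 34 intervals from 1 library per group, these values have no replicate check.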
